A study of Drosophila melanogaster with 16 samples.

Results

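The comparison described here sets EC-tagged RNA of larval brain neurons after 6 h of chase against the same RNA after 3 h of chase. It takes in 4 of the 16 libraries of the series, 2 at 6 h and 2 at 3 h, and these were chosen by cell type and time point alone. All 4 libraries came from L3 larvae in which nSyb-Gal4, a driver active in neurons, expressed UAS-CD:UPRT. These larvae were fed 5-ethynylcytosine for 12 h (the pulse) and were then moved to food with excess uridine for 6 h or 3 h (the chase). The remaining neuron libraries hold the end of the pulse and 12 h of chase, and the other 8 libraries of the series hold the same times for neuroblasts and other neural progenitors, driven by insc-Gal4. The brains were dissected crudely and the RNA was that of the whole tissue before capture. Libraries without CD:UPRT were not analysed here. For each RNA, values are given for replicate 1 first and replicate 2 second.

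CD:UPRT is a fusion of cytosine deaminase and uracil phosphoribosyltransferase that turns 5-ethynylcytosine into a tagged uridine nucleotide. Cells that carry the enzyme build the tag into new RNA, which is then biotinylated and pulled out of the total RNA on beads. During the chase untagged uridine outcompetes the tag, so the tagged pool ages, and an mRNA that is degraded faster than its neighbors takes a smaller share of what is captured later. Degradation of most mRNAs begins with the shortening of the poly(A) tail by the CCR4-NOT and PAN2-PAN3 complexes, followed by removal of the cap and digestion of the body. The mark m6A, which is written in the nucleus and bound by YTH proteins, has been tied to mRNA decay in mammals. The paper saw no link of m6A to half-life in neurons, while m6A targets were less stable in neuroblasts. It proposes that the targets are stabilized in neurons in a way that does not depend on m6A. Also drawing on protein imaging with Mettl3 lost or Ythdf overexpressed, it concludes that m6A is not a direct regulator of stability in fly neurogenesis. The comparison between 6 h and 3 h asks which mRNAs of neurons take a smaller or larger share of the tagged pool as it ages.

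The 4 libraries differed more by replicate number than by time in their content of mitochondrial RNA. Mitochondrially encoded mRNAs made up 85.8% and 7.57% of all counts in the 6 h libraries, against 78.1% and 5.03% in the 3 h libraries, and the Wilson 95% interval of each share reaches at most 0.00815 percentage points to either side, which covers counting error only. This left 5636081 and 160069313 nuclear counts at 6 h, against 13507692 and 168791963 at 3 h. Nuclear genes with at least 10 counts numbered 3427 and 9391 at 6 h, against 6364 and 6230 at 3 h. The plot of the 4 libraries shows the pair of replicate 1 libraries with the mitochondrial excess at both times, and the 6 h library of replicate 1 with the fewest genes. The mitochondrial share was 5.15 percentage points higher at 6 h on average (7.78 in replicate 1 and 2.53 in replicate 2), with an exact permutation p of 0.667 (two-sided), and genes detected gave an exact p of 1. An exact test of 2 against 2 libraries cannot give a p below 0.333. The labels number the replicates 1 and 2 without naming their origin, so p-values here measure the spread between these libraries, which may be technical.

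**Figure D1:**
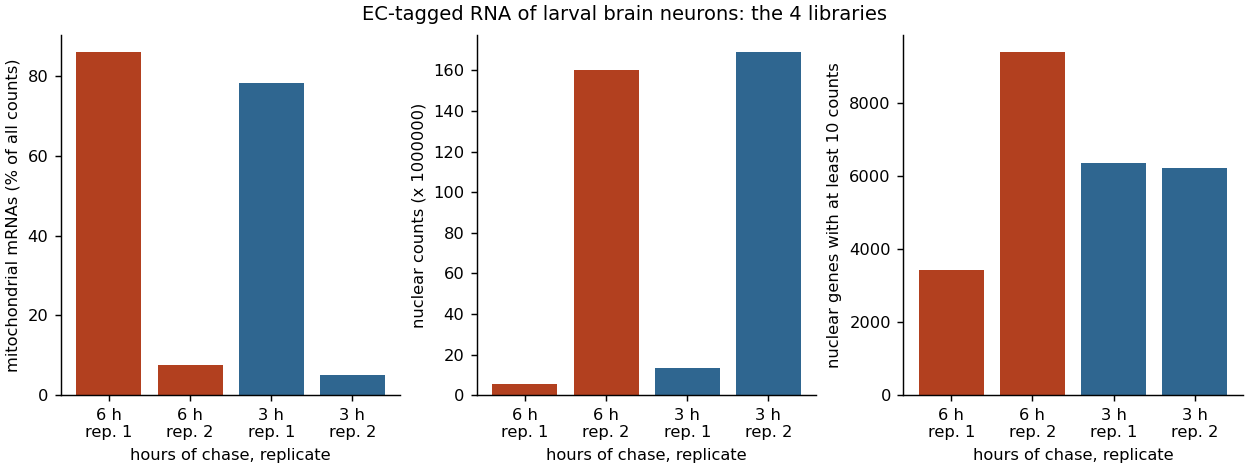
Mitochondrial mRNAs as a percentage of all counts, nuclear counts, and nuclear genes with at least 10 counts, one bar per library (6 h in red, 3 h in blue). Both replicate 1 libraries hold 78.1% or more mitochondrial mRNA, both replicate 2 libraries 7.57% or less, and the 6 h library of replicate 1 has 3427 genes against 6230 or more in the others.

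No nuclear gene passed the test between 6 h and 3 h. Estimated counts were summed per gene, scaled to the nuclear total of each library as CPM (counts per 1000000 nuclear counts) and tested by edgeR's quasi-likelihood test, in which 0 of 8263 genes (0%) had a Benjamini-Hochberg adjusted p under 0.05. The adjusted p was 0.9996 or more for each gene. At an unadjusted p under 0.05 there were 69 genes with a higher estimate at 6 h and 0 with a lower one. DESeq2 on the same counts called 319 genes, 245 higher and 74 lower at 6 h, and 284 of them had 0 counts in at least 1 of the 4 libraries. Limma-voom called 3 genes, and 2 of these, Paics and Pde6, differed in opposite directions in the 2 replicates.

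The spread was wide. The median biological coefficient of variation was 2.49, and the standard error of the log2 difference had a median of 5.31 and a minimum of 1.19. The test had no term for the replicate number, so this spread includes differences between the numbers. Of the tested genes, 63.6% had 0 counts in at least 1 of the 4 libraries. Of the genes with 1000 or more counts in either 6 h library, 49.4% had none in the other, against 29.9% between the 3 h libraries. Between 6 h and 3 h the share was 39.6% within replicate 1 and 8.17% within replicate 2. Both 6 h libraries lay above both 3 h libraries for 875 genes, which is 10.6% of those tested, and below both for 849 genes, or 10.3%. For 666 of the 875 genes fewer than 2 of the 3 h libraries reached the level that the filter on low values asked for (0.115 CPM), and for 512 of the 849 the same held of the 6 h libraries. Such genes entered the test through the group in which they were high. Scaling by TMM, by DESeq2 size factors or by totals with the mitochondrial genes shifted libraries relative to each other. The groups stayed apart in all 4 scalings for 620 genes higher at 6 h (7.5%) and 479 genes lower (5.8%).

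**Figure D2:**
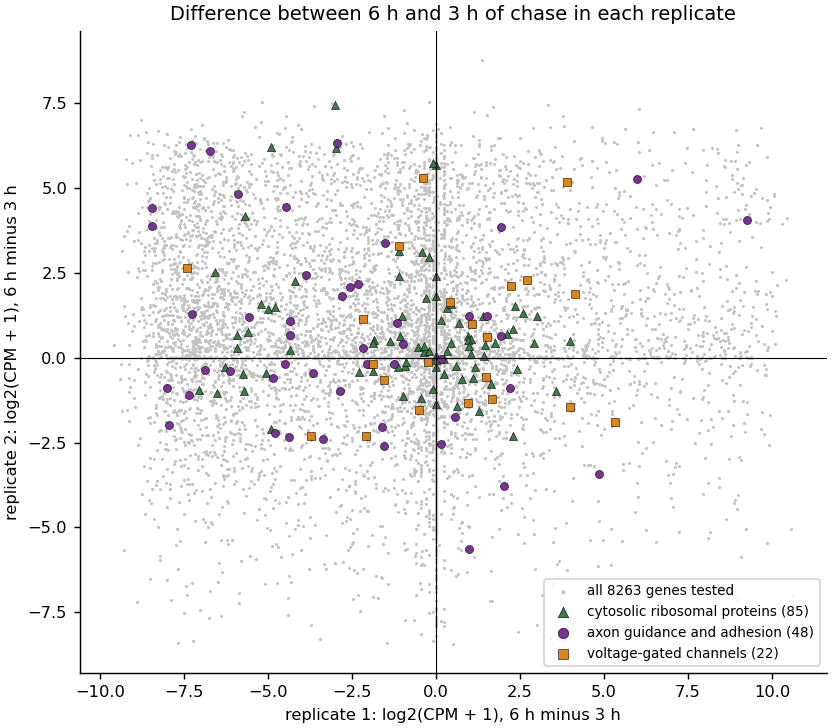
Difference in log2(CPM + 1) between 6 h and 3 h in replicate 1 (horizontal) and in replicate 2 (vertical) for the 8263 genes tested, with 3 gene lists marked. The 2 differences share no trend across genes (Pearson r = -0.03), with 30.1% of genes above 0 in replicate 1 and 62.4% in replicate 2.

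Since replicate 1 and replicate 2 each hold a 6 h and a 3 h library, each gene has 2 differences in log2(CPM + 1). Their Pearson r over the 8263 genes was -0.03 and their Spearman rho -0.04, where each point shares the depth of its libraries with the others. The genes with the lowest p-values all had their highest CPM in the 6 h library of replicate 1, which had the fewest nuclear counts. CG33109, on chromosome arm 3R at 14220560 to 14221584 of BDGP6.54, had 1068 and 26.1 CPM at 6 h and 0 and 0 CPM at 3 h. pim, which encodes the fly securin, an inhibitor of separase that is destroyed before sister chromatids part, had 1081 and 1.59 CPM at 6 h and 0 and 0 CPM at 3 h. Set against a floor of 3 counts in each 3 h library, the 6 h mean of CG33109 was at least 4562-fold higher and that of pim at least 4512-fold higher. In replicate 2 alone the bounds were 1471-fold for CG33109 and 89.3-fold for pim, so that of pim rests on the first 6 h library. CG18605, CG32305 and CG1136 had 931 to 1088 CPM in the first 6 h library, 0.32 to 59.5 CPM in the second, and 0 in both 3 h libraries. Their bounds in replicate 2 alone were 18.3-fold, 899-fold and 3349-fold. In counts, CG1136 had 5250 and 9529 at 6 h. All 5 missed the threshold in edgeR and passed it in DESeq2.

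Among genes with a lower estimate at 6 h the lowest p-values were 0.0548 or more, before adjustment, in the edgeR test across all genes. The 5 genes that follow missed the threshold in edgeR and passed it in DESeq2. Zip71B, a member of the zinc transporter family ZIP, had 0 and 0.03 CPM at 6 h, against 149 and 331 CPM at 3 h. CG13795 had 0 and 0.06 CPM at 6 h, against 203 and 353 CPM at 3 h. For both genes both 3 h libraries stand far above both 6 h libraries. The 3 others, CG6688, mTerf3 (a mitochondrial transcription termination factor family member) and sha, had 0 to 0.01 CPM in the 6 h libraries, against 330 to 469 CPM in the first 3 h library and 0.25 to 0.34 CPM in the second.

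Neuron markers were present and did not move together. All 12 markers of neurons were in the table, and their summed level was 7741 and 5622 CPM at 6 h, against 2718 and 7566 CPM at 3 h. VGlut, the vesicular glutamate transporter, was at 0 in both replicate 1 libraries. nSyb, which encodes the synaptic vesicle SNARE that names the driver (3L, 1630348 to 1637752), had 1026 and 734 CPM at 6 h, against 344 and 684 CPM at 3 h. The nSyb groups did not overlap under the nuclear scaling but did under the other 3 scalings. elav, an RNA-binding protein of all neurons (X, 509235 to 523226), had 366 and 199 CPM at 6 h, against 392 and 786 CPM at 3 h, and its groups too were apart in the nuclear scaling alone. Its relative fne had 1192 and 1093 CPM at 6 h, between the 300 and 2122 CPM of the 3 h libraries. Of the 14 neuron identity genes, 1 lay higher at 6 h without overlap and 4 lower (elav, Rbp9, onecut and ChAT), or 7.14% and 28.6% of a short list, beside 10.6% and 10.3% of all genes. ChAT, which makes acetylcholine, had 0.89 and 1.79 CPM at 6 h, against 73.9 and 6.49 CPM at 3 h, and was the only one of the 5 whose groups stayed apart in all 4 scalings.

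Of 31 genes of synaptic vesicle release tested, 3 lay higher and 3 lower at 6 h without overlap (9.68% each), near the 10.6% and 10.3% of all genes. brp, which builds the active zone scaffold, had 2153 and 500 CPM at 6 h, against 59.0 and 570 CPM at 3 h. unc-13, which primes vesicles, had 1561 and 477 CPM at 6 h, against 2941 and 728 CPM at 3 h, lower in each replicate but with overlapping groups. Csp, a vesicle co-chaperone, had 460 and 310 CPM at 6 h, against 257 and 177 CPM at 3 h, a difference of 0.84 and 0.81 log2 units in the 2 replicates. The groups of Csp overlapped under the 3 other scalings. lap, an adaptor for clathrin-mediated vesicle retrieval, had 10.6 and 107 CPM at 6 h, against 320 and 399 CPM at 3 h. Over the list 11 genes were lower and 4 higher at 6 h in both replicates, where over all tested genes 1559 were lower and 1562 higher in both.

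Voltage-gated channels set the firing of neurons. Of 22 genes tested, 3 lay higher without overlap at 6 h (Ca-beta, slo and tipE) and 3 lower (Sh, Shal and Ca-alpha1D), or 13.6% each, beside 10.6% and 10.3% of all genes. Shal, a potassium channel of dendrites and cell bodies, had 54.5 and 31.3 CPM at 6 h, against 236 and 158 CPM at 3 h, which gives differences of -2.10 and -2.30 log2 units. Its groups stayed apart in all 4 scalings. Sh, the Shaker potassium channel, had 759 and 698 CPM at 6 h, against 2227 and 1095 CPM at 3 h, and overlapped in 1 of the 4 scalings. Ca-beta, the auxiliary subunit of voltage-gated calcium channels, went the other way with 933 and 262 CPM at 6 h, against 52.6 and 70.3 CPM at 3 h, and likewise overlapped in 1 scaling. slo, the calcium-activated potassium channel, had 818 and 429 CPM at 6 h, against 284 and 282 CPM at 3 h, and was apart in the nuclear scaling alone. para, the neuronal sodium channel, had 891 and 1681 CPM at 6 h, against 1058 and 1853 CPM at 3 h. tipE, an auxiliary protein of that channel, had 21.6 and 41.1 CPM at 6 h, against 0.52 and 0.18 CPM at 3 h, and stayed apart in all 4 scalings.

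Among the 10 nicotinic acetylcholine receptor subunits, nAChRbeta1 and nAChRalpha3 lay higher at 6 h without overlap and nAChRalpha2 and nAChRalpha4 lower. This is 20% of a list of 10 in each direction, beside 10.6% and 10.3% of all genes. nAChRbeta1 had 375 and 30.2 CPM at 6 h, against 22.8 and 0.02 CPM at 3 h, apart in all 4 scalings. Fewer than 2 of the 3 h libraries reached the filter's level for nAChRbeta1, so its order across scalings is no added support. nAChRalpha6 had 1001 and 673 CPM at 6 h, against 1149 and 664 CPM at 3 h, with differences of -0.20 and 0.02 log2 units. The sodium-potassium pump gave 5 tested genes and no separation. Its catalytic subunit Atpalpha had 21.5 and 3802 CPM at 6 h, against 581 and 5695 CPM at 3 h, and differed more between replicate numbers than between times.

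Axon guidance and adhesion genes more often lay lower at 6 h than higher. Without overlap, 13 of 48 (27.1%) lay lower and 2 higher (4.17%), beside 10.3% and 10.6% of all tested genes, and the list's median log2 difference was -1.07 beside -0.34. The median was -2.84 in replicate 1 but 0.34 in replicate 2, beside -0.45 and 0.60 for all genes. Of the 48 genes 35 were lower in replicate 1 (72.9%) and 23 in replicate 2 (47.9%), beside 56.3% and 35.2% of all genes. With totals that include the mitochondrial genes, 6 lay lower (12.5%) and 5 higher (10.4%), beside 6.90% and 9.94% of all genes. In all 4 scalings 4 of the 13 stayed lower, or 8.33% of the list, beside 5.8% of all genes. No member passed the test. These 4 were PlexB, a semaphorin receptor, NetA, a netrin that attracts or repels growth cones, Sema2a, a secreted semaphorin, and Ptp69D, a receptor tyrosine phosphatase. PlexB had 396 and 133 CPM at 6 h, against 1219 and 551 CPM at 3 h. NetA had 0 and 34.6 CPM at 6 h, against 245 and 140 CPM at 3 h. NetA entered the test through the 3 h libraries, so its order across scalings is no added support. Sema2a had 5.32 and 26.9 CPM at 6 h, against 445 and 35.5 CPM at 3 h. Ptp69D had 10.1 and 11.4 CPM at 6 h, against 312 and 56.7 CPM at 3 h. All of these were lower at 6 h in both replicates. Fas1, the gene of the list with the highest mean, had 60.1 and 824 CPM at 6 h, against 775 and 1127 CPM at 3 h. Its groups overlapped.

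Lar, a receptor tyrosine phosphatase of growth cones and synapses, had 53.4 and 124 CPM at 6 h, against 563 and 659 CPM at 3 h. It was lower in each replicate (-3.37 and -2.40 log2 units), but its groups did not stay apart in all 4 scalings. robo2, a Slit receptor, had 7.45 and 43.5 CPM at 6 h, against 175 and 222 CPM at 3 h. Dscam1, whose many spliced forms let neurites recognize their own cell, had 2.31 and 481 CPM at 6 h, against 855 and 902 CPM at 3 h, so its separation rests mainly on replicate 1. Nrg, the fly L1 adhesion molecule, had the same form with 5.68 and 270 CPM at 6 h, against 790 and 351 CPM at 3 h. The 2 members that lay higher were Ptp10D and comm, which sorts the Robo receptor away from the growth cone surface. Ptp10D had 1164 and 78.8 CPM at 6 h, against 0.89 and 3.84 CPM at 3 h. comm had 62.8 and 37.7 CPM at 6 h, against 0 and 0.01 CPM at 3 h. Both stayed apart in all 4 scalings. comm entered the test through the 6 h libraries, so its order across scalings is no added support.

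**Figure D3:**
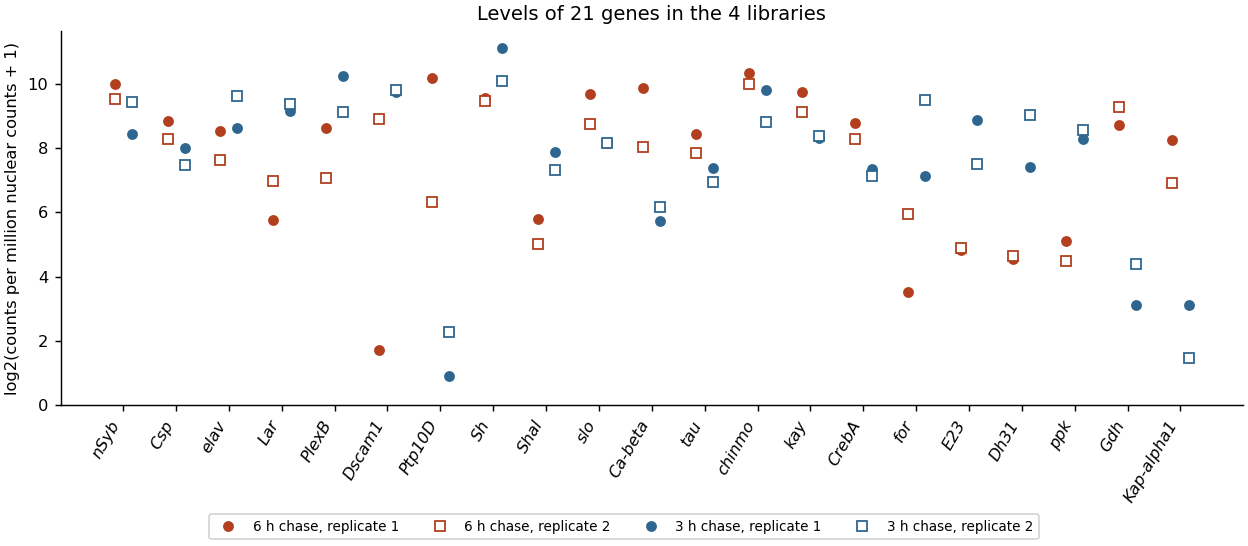
Level as log2(CPM + 1) of 21 genes in the 4 libraries, with 6 h in red to the left of 3 h in blue, filled circles for replicate 1 and open squares for replicate 2. Shal, PlexB, E23, Dh31 and ppk sit lower in both 6 h libraries, Ptp10D, Gdh and Kap-alpha1 sit higher, and no gene shown passed the test across all genes.

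Among 25 tubulin, actin and microtubule protein genes, 5 lay higher without overlap at 6 h (20%) and 2 lower (8%), beside 10.6% and 10.3% of all genes. tau, which binds axonal microtubules, had 349 and 230 CPM at 6 h, against 164 and 123 CPM at 3 h, apart in the nuclear scaling alone. Map205, another microtubule-binding protein, had 782 and 309 CPM at 6 h, against 281 and 41.1 CPM at 3 h, apart in all 4 scalings. Klc, the kinesin light chain, had 0.18 and 39.5 CPM at 6 h, against 230 and 179 CPM at 3 h. Act57B, an actin of larval muscle, was the gene of the list with the highest mean and had 8.87 and 10995 CPM at 6 h, against 170 and 8413 CPM at 3 h.

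The genes of protein synthesis separated the replicates and not the times. The 93 cytosolic ribosomal protein genes in the data summed to 584 and 42722 CPM at 6 h, against 2931 and 36439 CPM at 3 h. Of the 85 tested, 0 lay apart in either direction, beside 10.6% higher and 10.3% lower of all genes. With DESeq2 size factors 2 lay lower (2.35%), beside 11.9% of all genes. RpS20 had 18.5 and 2404 CPM at 6 h, against 0.22 and 1711 CPM at 3 h. In replicate 2, where these mRNAs were well counted, 54 of the 85 were higher at 6 h, with a median difference of 0.36 beside 0.60 for all genes. The median of the fit was 0.30, but -0.18 with TMM factors and -1.55 with DESeq2 size factors. Initiation and elongation factors showed the same contrast, with sums of 1731 and 29237 CPM at 6 h, against 3600 and 25625 CPM at 3 h. eEF1alpha1, which brings aminoacyl-tRNA to the ribosome, had 100 and 14492 CPM at 6 h, against 322 and 8833 CPM at 3 h. Of 44 such genes 3 lay lower without overlap (6.82%) and 0 higher, beside 10.3% and 10.6% of all genes. The 3 were eIF2alpha, eIF5B and eRF3. eIF2alpha, the subunit whose phosphorylation slows initiation, had 0 and 8.88 CPM at 6 h, against 221 and 80.0 CPM at 3 h, and kept this order in all 4 scalings. It entered the test through the 3 h libraries, so this order across scalings is no added support.

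Mitochondrial ribosomal protein genes lay higher at 6 h in 9 of 46 (19.6%) and lower in 1 (2.17%), beside 10.6% and 10.3% of all genes. Of the 9, 7 stayed higher in all 4 scalings (15.2%, beside 7.5% of all genes). For all 9, fewer than 2 of the 3 h libraries reached the filter's level, as for 76.1% of all genes that lay higher. These 9 entered the test through the 6 h libraries, so their order across scalings is no added support. They belong to the ribosome that translates the mitochondrial mRNAs. mRpS5 had 18.1 and 22.7 CPM at 6 h, against 0 and 0.01 CPM at 3 h. mRpS25 had 683 and 1.52 CPM at 6 h, against 0 and 0.08 CPM at 3 h, and mRpS18B lay lower, with 0 and 0.02 CPM at 6 h, against 12.3 and 241 CPM at 3 h. The summed level of the list was 896 and 791 CPM at 6 h, against 684 and 805 CPM at 3 h, so the list as a whole did not separate the times.

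Nuclear-encoded respiratory chain genes gave 2 higher and 3 lower of 66 without overlap, and proteasome subunits 1 higher and 2 lower of 31, both under the shares over all genes. ATPsynC, the membrane ring subunit of ATP synthase, had 172 and 2585 CPM at 6 h, against 176 and 831 CPM at 3 h. The vacuolar proton pump, which acidifies synaptic vesicles and lysosomes, summed to 1051 and 16712 CPM at 6 h, against 1465 and 11331 CPM at 3 h. Its ring subunit Vha16-1 had 99.4 and 8170 CPM at 6 h, against 274 and 4591 CPM at 3 h, higher in replicate 2 and lower in replicate 1. Chaperones split in the same way, with 13 of 15 higher at 6 h in replicate 2 and 2 of 15 higher in replicate 1, where over all genes 62.4% were higher in replicate 2 and 30.1% in replicate 1. Hsc70-3, the chaperone BiP of the endoplasmic reticulum, had 7.27 and 3690 CPM at 6 h, against 57.3 and 1592 CPM at 3 h. DnaJ-1, an Hsp40, was higher in both with 491 and 208 CPM at 6 h, against 0.30 and 126 CPM at 3 h.

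**Figure D4:**
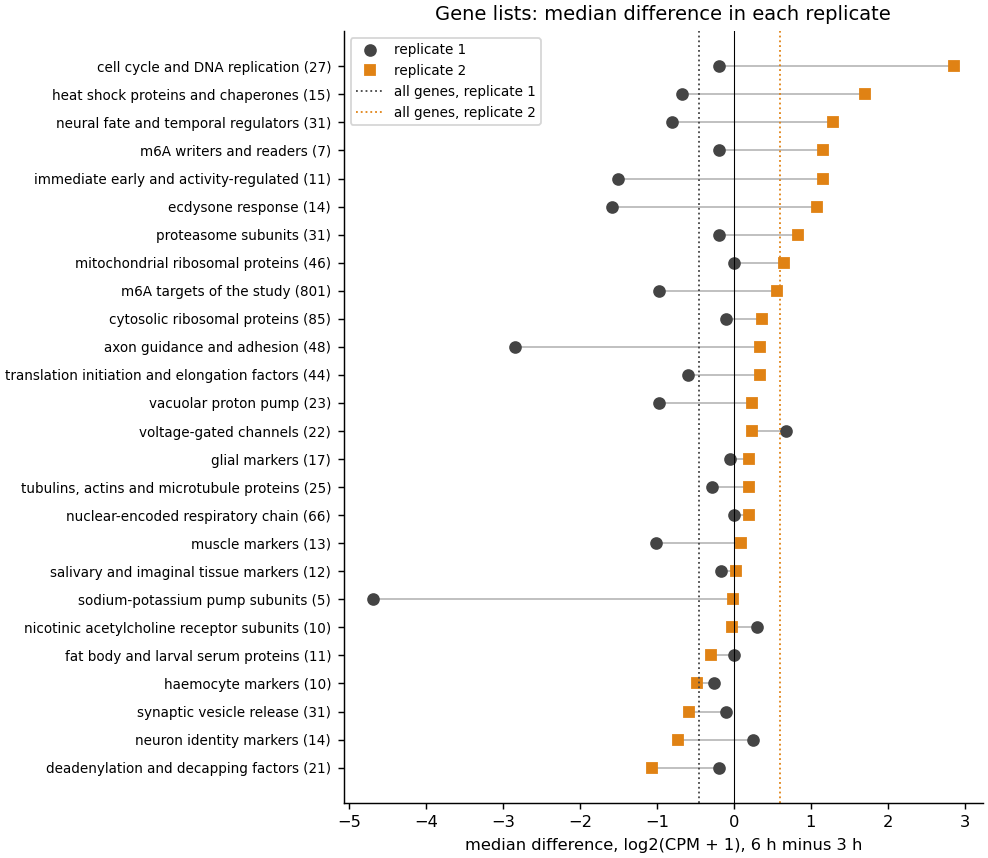
Median difference in log2(CPM + 1) between 6 h and 3 h for each gene list in replicate 1 (dark circles) and replicate 2 (orange squares), with the number of genes tested in parentheses and dotted lines at the medians of all genes (-0.45 and 0.60). The 2 medians fall on opposite sides of 0 for most lists, as for the cell cycle list (-0.20 and 2.86) and the axon guidance list (-2.84 and 0.34).

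Regulators of neural fate set which neurons a progenitor makes and when. Of 31 fate and temporal regulators 5 lay higher without overlap (16.1%) and 1 lower (3.23%), beside 10.6% and 10.3% of all genes. chinmo, a transcription factor of early-born neurons, had 1298 and 1010 CPM at 6 h, against 890 and 444 CPM at 3 h, apart in the nuclear scaling alone. Imp, the RNA-binding protein that marks the same early window, had 959 and 2420 CPM at 6 h, against 1677 and 3813 CPM at 3 h, lower in both replicates with overlapping groups. svp, a nuclear receptor that closes the first temporal window in embryonic neuroblasts, had 93.3 and 48.3 CPM at 6 h, against 15.0 and 1.98 CPM at 3 h, apart in all 4 scalings. dati, a zinc finger factor, had 2.66 and 26.5 CPM at 6 h, against 290 and 185 CPM at 3 h, lower in all 4 scalings.

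Cell cycle genes lay higher in 6 of 27 (22.2%) and lower in 2, beside 10.6% and 10.3% of all genes, and all 6 stayed higher in all 4 scalings, beside 7.5% of all genes. For all 6, fewer than 2 of the 3 h libraries reached the filter's level, so they entered the test through the 6 h libraries. The same held for 76.1% of all genes that lay higher. Staying higher across scalings is therefore no added support for these 6. The median log2 difference of the list was 1.88, with -0.20 in replicate 1 and 2.86 in replicate 2. The 6 were pim, CycA, CycD, Dp, Mcm7 and polo. Dp, the partner of E2F, had 555 and 81.3 CPM at 6 h, against 0 and 1.93 CPM at 3 h. polo, a mitotic kinase, had 516 and 57.3 CPM at 6 h, against 0 and 4.43 CPM at 3 h. CycA, a mitotic cyclin, had 0.71 and 66.8 CPM at 6 h, against 0.15 and 0.01 CPM at 3 h. In replicate 1 this is near a floor of 3 counts, which equals 0.532 CPM at 6 h and 0.222 CPM at 3 h. CycD had 13 and 371 counts at 6 h, against 0 and 8 counts at 3 h. borr, a subunit of the chromosomal passenger complex, lay the other way with 0 and 0.01 CPM at 6 h, against 87.4 and 23.4 CPM at 3 h. fzr, the gene of the list with the highest mean, had 3299 and 14.8 CPM at 6 h, against 888 and 10.9 CPM at 3 h. Its groups overlapped. The progenitor markers had summed levels of 1067 and 374 CPM at 6 h, against 2956 and 202 CPM at 3 h, so they were lower at 6 h in replicate 1 and higher in replicate 2. dpn, a marker of neuroblasts, had 0.71 and 40.6 CPM at 6 h, against 0 and 0.01 CPM at 3 h, while ase had 0 and 0.01 CPM at 6 h, against 19.5 and 0 CPM at 3 h. In bulk RNA, fewer cells of a type cannot be told apart from less RNA per cell, and the part of progenitor RNA in these values was not tested.

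Of 11 immediate early and activity-regulated genes, 2 lay higher without overlap, kay and CrebA, and 1 lower, for. The shares are 18.2% and 9.09%, beside 10.6% and 10.3% of all genes. kay, the fly Fos, had 853 and 554 CPM at 6 h, against 315 and 330 CPM at 3 h. CrebA, a transcription factor of secretory capacity, had 441 and 310 CPM at 6 h, against 161 and 139 CPM at 3 h, with differences of 1.45 and 1.15 log2 units. for, the cGMP-dependent kinase behind foraging behavior, had 10.5 and 61.1 CPM at 6 h, against 140 and 725 CPM at 3 h, or -3.62 and -3.55 log2 units. CrebA and for differed by like amounts in the 2 replicates, but the groups of all 3 genes overlapped in at least 1 other scaling. Arc1, which forms capsid-like particles at synapses, had 10.3 and 4133 CPM at 6 h, against 1.55 and 4517 CPM at 3 h.

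Ecdysone, the molting steroid, drives a cascade of nuclear receptors in the late larva. Of 14 of its response genes 1 lay higher and 2 lower without overlap (7.14% and 14.3%), beside 10.6% and 10.3% of all genes. E23, an ABC transporter that limits the ecdysone response, had 27.5 and 28.5 CPM at 6 h, against 464 and 181 CPM at 3 h. Eip74EF, an ETS factor induced early by the hormone, had 3.19 and 23.2 CPM at 6 h, against 262 and 30.2 CPM at 3 h, and both genes stayed lower in all 4 scalings. Hr4, a nuclear receptor, had 3300 and 299 CPM at 6 h, against 782 and 122 CPM at 3 h, higher in both replicates with overlapping groups.

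Of 21 deadenylation and decapping factors, which carry out mRNA decay, 7 were lower and 1 (Upf1) higher at 6 h in both replicates, where over all genes 18.9% were lower and 18.9% higher in both. Without overlap 3 lay lower (14.3%) and 1 higher (4.76%), beside 10.3% and 10.6% of all genes, and none passed edgeR's test. Not1, the scaffold of the CCR4-NOT complex, had 5280 and 607 CPM at 6 h, against 577 and 966 CPM at 3 h. twin, its deadenylase CCR4, had 0 and 131 CPM at 6 h, against 208 and 275 CPM at 3 h. smg, which recruits that complex to its targets, had 2.13 and 8.86 CPM at 6 h, against 87.0 and 116 CPM at 3 h, lower in all 4 scalings. Of 7 genes of m6A writers and readers tested, 1 lay lower without overlap (14.3%) and 0 higher, beside 10.3% and 10.6% of all genes. This was fl(2)d, a subunit of the writer complex, with 0 and 11.4 CPM at 6 h, against 114 and 81.9 CPM at 3 h. It entered the test through the 3 h libraries. The reader Ythdf had 169 and 85.1 CPM at 6 h, against 141 and 9.17 CPM at 3 h. The nuclear reader Ythdc1 had 0 and 156 CPM at 6 h, against 349 and 15.7 CPM at 3 h, opposite in the 2 replicates.

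The m6A targets listed by the study had a median difference near that of all genes. Of 867 listed, 863 matched the annotation and 801 were tested, and 0 passed the test. Their median log2 difference was -0.50, beside -0.34 for all genes, with -0.97 in replicate 1 and 0.56 in replicate 2, beside -0.45 and 0.60. Both 6 h libraries lay above both 3 h libraries for 87 targets (10.9%) and below for 117 (14.6%), and in all 4 scalings for 42 (5.24%) and 54 (6.74%). Over all genes these shares were 10.6% and 10.3%, and 7.5% and 5.8% in all 4 scalings. The study named these targets from meRIP-seq of larval brains, in libraries not used here. Muc96D, a mucin-like gene with the highest mean of the list, had 729 and 78091 CPM at 6 h, against 648 and 30333 CPM at 3 h. It also had the smallest standard error of all genes, with a log2 difference of 1.35 and an error of 1.19, and limma-voom called it. Of 2 targets that the study imaged, run, a Runx transcription factor, had 0.71 and 0.11 CPM at 6 h, against 0.07 and 0.82 CPM at 3 h, and CycD, a cyclin of the G1 phase, had 2.31 and 2.32 CPM at 6 h, against 0 and 0.05 CPM at 3 h.

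Restricting the view to genes with at least 100 counts in each of the 4 libraries, a choice made after the values were seen, left 979 genes. The 2 replicate differences still had a Pearson r of -0.003 across them. Of these genes 108 were higher at 6 h by more than 1 log2 unit in both replicates, 67 were lower by more than that in both, and 188 differed by more than that in opposite directions. The 6 whose groups lay apart with the largest smaller difference in each direction are named here, also after the values were seen. On the lower side were Pc, PsGEF, ppk, Trf2, alpha-Man-Ia and Dh31. Pc, the Polycomb protein that binds methylated histone tails, had 18.8 and 1.01 CPM at 6 h, against 272 and 151 CPM at 3 h. ppk, a sodium channel of body wall sensory neurons, had 33.5 and 21.2 CPM at 6 h, against 307 and 378 CPM at 3 h. Dh31, a neuropeptide, had 22.4 and 24.1 CPM at 6 h, against 170 and 520 CPM at 3 h. Trf2, a relative of the TATA-binding protein, had 27.7 and 87.7 CPM at 6 h, against 319 and 693 CPM at 3 h, and was the only one of the 6 to overlap in another scaling.

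On the higher side were Kap-alpha1, Gdh, uif, obe, PDZ-GEF and Srp9, all apart in the 4 scalings. Gdh, the glutamate dehydrogenase of mitochondria (3R, 23935958 to 23943101), had 416 and 622 CPM at 6 h, against 7.70 and 19.9 CPM at 3 h. Kap-alpha1, an importin that carries proteins into the nucleus (3L, 19807232 to 19810398), had 305 and 120 CPM at 6 h, against 7.70 and 1.77 CPM at 3 h. Srp9, of the signal recognition particle, had 765 and 102 CPM at 6 h, against 49.5 and 5.67 CPM at 3 h. The log2 differences of the fit were 5.23 ± 4.25 for Gdh and 5.49 ± 5.39 for Kap-alpha1 (SE, n = 2 libraries per time), and neither passed edgeR's test.

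The 13 mitochondrially encoded mRNAs, for subunits of the respiratory chain and ATP synthase, were set against their own sum. None lay apart between 6 h and 3 h. mt:CoI, the first subunit of cytochrome oxidase, made up 17.2% and 24.7% of the mitochondrial mRNA counts at 6 h, against 15.8% and 26.3% at 3 h. mt:ND5, of complex I, made up 15.1% and 11.5% at 6 h, against 13.9% and 14.3% at 3 h. In replicate 1 the log2 differences of the 13 genes ran only from -0.40 to 0.13. In replicate 2 they ran from -0.69 to 4.14. Among the 7 complex I genes in replicate 2, mt:ND2, mt:ND3, mt:ND4 and mt:ND4L were higher at 6 h and mt:ND1, mt:ND5 and mt:ND6 lower. mt:ND4L made up 1.24% and 0.634% at 6 h, against 1.21% and 0.0361% at 3 h. The exact permutation p was 0.667 or more for each gene (two-sided).

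**Figure D5:**
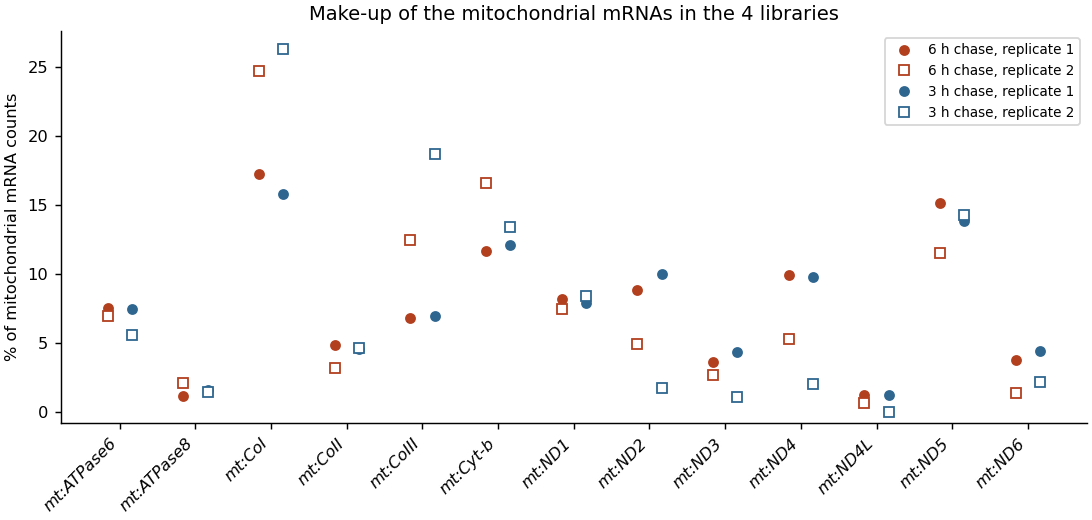
Share of each mitochondrial mRNA in the mitochondrial mRNA counts of its library, with 6 h in red to the left of 3 h in blue, filled circles for replicate 1 and open squares for replicate 2. The replicate 1 libraries nearly coincide at both times, while in replicate 2 mt:CoIII takes 12.4% at 6 h and 18.7% at 3 h, and mt:ND2 takes 4.92% at 6 h and 1.75% at 3 h.

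RNA of other tissues was present, and that of muscle and fat body followed the replicate number. The 6 muscle markers summed to 160 and 11608 CPM at 6 h, against 1284 and 8699 CPM at 3 h, and the 6 fat body markers to 40.3 and 1542 CPM at 6 h, against 455 and 1968 CPM at 3 h. The 6 salivary gland markers summed to 828 and 69.3 CPM at 6 h, against 692 and 5.63 CPM at 3 h, and at least 2 of the 6 were at 0 in each library. The 4 haemocyte markers summed to 338 and 209 CPM at 6 h, against 167 and 383 CPM at 3 h, with 3 of the 4 at 0 in the first 6 h library. The 7 glial markers summed to 809 and 1032 CPM at 6 h, against 398 and 996 CPM at 3 h. repo, the transcription factor of lateral glia, had 1.24 and 25.2 CPM at 6 h, against 107 and 240 CPM at 3 h, while moody, a receptor of blood-brain barrier glia, had 805 and 68.1 CPM at 6 h, against 2.96 and 32.8 CPM at 3 h. The part of these RNAs in the values of neuronal genes was not tested.

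In neuroblasts the same comparison gave 0 of 8626 genes (0%) past the edgeR test, with a median coefficient of variation of 1.53 and 5 genes higher and 213 lower at 6 h at an unadjusted p under 0.05. The difference between 6 h and 3 h was not shown to differ between neurons and neuroblasts, as the interaction of cell type and time had 0 of 10476 genes (0%) with an adjusted p under 0.05. At an unadjusted p under 0.05 the same test had 390 genes higher and 75 lower in neurons, and DESeq2 called 1389. Leaving out the 6 h neuron library of replicate 2 gave 64 genes, and leaving out any of the other 7 gave 0. nSyb was captured at 127 and 144 CPM in neuroblasts after 6 h, against 178 and 92.6 CPM after 3 h.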

How the data were processed

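Tagged RNA was biotinylated, captured on streptavidin beads and sequenced after ribosomal RNA depletion. Per the labels, the authors trimmed reads with Trimmomatic and assigned them with kallisto to the BDGP6 transcripts, and they deposited estimated counts per transcript and library. kallisto splits reads among transcripts that share sequence, so counts of paralogs and overlapping genes are uncertain. Versions are not given in the sources used here. Transcripts were summed per gene with the Ensembl BDGP6.54 annotation (99.6% of the neuron transcripts matched) and rounded. Since mitochondrially encoded genes took most counts in some libraries, they were kept out of the library sizes. Levels are therefore relative to nuclear counts and are not comparable between genes, which differ in length. A count of 3, taken as a floor, equals 0.532 and 0.0187 CPM at 6 h, against 0.222 and 0.0178 CPM at 3 h.

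Genes were filtered by filterByExpr (minimum count 10, minimum total 15) and tested with edgeR 4.0.16 in R 4.3.3 on the 4 libraries, without a replicate block, at a Benjamini-Hochberg adjusted p of 0.05. DESeq2 1.42.0, limma 3.58.1 (voom), other scalings and filters, single transcripts, a replicate block and leaving out each library were alternatives. Differences within a replicate are of log2(CPM + 1). The script was tested on simulated data. The naming rule took genes of highest mean in each list and over all genes, and those of lowest p where none passed the threshold. It also took defining markers and imaged targets. Not all genes under the rule are described above. Other list members were named after their values were seen, mostly because their libraries did not overlap. The members and lists were chosen with earlier results of these data known. Per the methods, feeding was done in biological triplicate and duplicate RNA samples were captured for each time, and the 2 numbered libraries of each time are the ones used. With 2 neuron pairs, and labels that do not tie a number to a batch, the main test did not pair the samples by number. Differences within a replicate number are given as description only. Across tested genes, Spearman rho between 6 h and 3 h libraries was 0.25 within replicate 1 and 0.60 within replicate 2. Between the replicates of 1 time it was 0.12 at 6 h and 0.05 at 3 h. The spread in the main test thus includes the difference between replicate numbers.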

Additional observations from a re-analysis of the deposited data

How the results depend on the processing

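The count of 0 genes between 6 h and 3 h in neurons stayed at 0 with TMM factors, DESeq2 size factors or mitochondrial genes in the library sizes, with no filter or a stricter one, with all 8 neuron libraries and with 1 transcript per gene. It was 0 to 0 without any 1 library, but there a group of 1 is assumed to vary like the other group, and with errors this wide a 0 says nothing about stability. It was 319 with the DESeq2 test (245 higher and 74 lower), 3 with limma-voom and 1 with a replicate block (CG3078, adjusted p 0.00612 in edgeR), which became 0 once TMM was added to the block. The replicate numbers gave 2 pairs only, and the replicate 1 deviations at 6 h and 3 h had a Pearson r of 0.31 across genes. CG3078 had 45774 and 162 counts at 6 h, against 594 and 1 at 3 h. For the interaction with neuroblasts the count was 0, but 1389 with DESeq2 (1167 higher and 222 lower), 0 to 64 when leaving out 1 library, and 0 with the replicate block. The cause of these differences was not tested. The median log2 difference of all genes was -0.34, and -0.40 with TMM, -1.02 with DESeq2 size factors and 0.07 with total counts. Over the same genes where refitted, it ran from -7.91 to 1.69 when leaving out 1 library. Of 46 named genes, 4 took the other sign with TMM and 12 with DESeq2 size factors, as did 6 and 8 of 27 list medians. The mitochondrial share differed by 5.15 points, or by 4.19 with all mitochondrial transcripts, and by 2.53 to 7.78 when leaving out 1 replicate.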
